A study of Mus musculus with 11 samples.

Results

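Lysosomes are acidic, membrane-bound compartments in which hydrolases degrade proteins, lipids and sugar chains, and the 41 genes described here encode their main working parts. They were matched by name in the deposited tables, which list 16576 gene identifiers in all, and comprise 8 cathepsins, 11 other hydrolases, 3 soluble cofactors, 7 membrane proteins, 2 transcription factors and 10 parts of the proton pump. All 41 were listed in the table of adult and perinatal cells and in the table of the Sca1 sort, and 40 in the knockout table, where the pump subunit gene Atp6v0c was not listed. PolyA RNA of flow-sorted mouse bone marrow stromal cells was sequenced in 11 samples. The adult group was 3 wild-type samples sorted for PDGFRa and CD51. The Sca1-negative group was 2 wild-type perinatal samples with the sort PDGFRa+Sca1-. The knockout group was 3 samples sorted as PDGFRa+Sca1+ whose genotype is given as IGF1R knockout, Cre-positive by their titles. The reference group was 3 wild-type perinatal samples with the sort PDGFRa+Sca1+, Cre-negative by their titles. All 3 served in the adult and knockout comparisons, but only samples 2 and 3 of this group in the Sca1 comparison. Neither ages in days or weeks nor a promoter for Cre is given in the sources used here. In the sample labels the term for the perinatal cells is postnatal. Separate animals are not named for the samples of any group, and the p-values therefore reflect only how these samples differ, part of which may be technical.

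Cathepsins are the lysosomal proteases. Most are made as inactive precursors and mature in the acidic lumen, which the proton pump, the vacuolar ATPase, maintains by driving protons across the membrane with energy from ATP hydrolysis in its V1 sector and a channel-like V0 sector. Membrane proteins such as LAMP1 line and protect the lysosome, and the factors TFEB and TFE3 activate many lysosomal genes through a short DNA motif with CACGTG at its core. In bone marrow, macrophages are rich in lysosomes, and Lyz2, Cd68 and Ctss are commonly used as genes of macrophages and other myeloid cells.

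Promoter sequence was available for 34 of the 41 genes from RefSeq (build GRCm38.p6), as windows of 250 bases before to 50 after a transcription start. The motif CACGTG, which reads the same on both strands, was present in a window of 13 of these 34 genes, or 38.2%, against 2187 of 27025 genes in the whole promoter table, or 8.09%. The longer GTCACGTG, searched on both strands and always containing CACGTG, was present in 10 of the 34 genes, or 29.4%, against 689 of all 27025, or 2.55%. Of the genes with a window, CACGTG was found in 3 of 6 cathepsins, 5 of 10 other hydrolases, 0 of 3 cofactors, 2 of 6 membrane proteins, 0 of 2 factors and 3 of 7 pump genes. A match describes the letters in the window and is not a measured binding site. These promoters are shown as examples of genes described in the adult comparison below: Ctsd (chr7:142387808-142387957, minus strand), Lamp1 (chr8:13159031-13159180, plus strand) and Naglu (chr11:101069964-101070113, plus strand) with the motif, and Ctss (chr3:95526656-95526805, plus strand) and Cd68 (chr11:69666151-69666300, minus strand) without it. Each is written 5′ to 3′ on the strand of its gene, from 130 bases before to 20 after the start, with CACGTG in capitals.
Ctsd: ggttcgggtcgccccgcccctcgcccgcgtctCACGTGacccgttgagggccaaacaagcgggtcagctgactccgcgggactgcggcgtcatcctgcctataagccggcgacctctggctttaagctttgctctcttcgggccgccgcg
Lamp1: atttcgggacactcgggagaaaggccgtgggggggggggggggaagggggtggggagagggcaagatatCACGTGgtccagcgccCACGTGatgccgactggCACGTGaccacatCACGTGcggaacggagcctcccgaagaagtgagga
Naglu: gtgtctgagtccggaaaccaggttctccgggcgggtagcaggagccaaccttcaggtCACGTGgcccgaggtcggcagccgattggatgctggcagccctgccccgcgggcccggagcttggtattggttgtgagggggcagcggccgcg
Ctss: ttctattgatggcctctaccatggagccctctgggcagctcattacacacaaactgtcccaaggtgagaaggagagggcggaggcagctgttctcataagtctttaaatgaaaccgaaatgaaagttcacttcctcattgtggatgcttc
Cd68: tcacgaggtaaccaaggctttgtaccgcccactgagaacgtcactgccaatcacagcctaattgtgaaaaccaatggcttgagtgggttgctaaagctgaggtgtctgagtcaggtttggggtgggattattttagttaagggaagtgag
Lamp1 held 4 copies in this stretch, Ctsd and Naglu 1 each, and Ctss and Cd68 none.

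Values are CPM, counts scaled to a common library size with TMM factors and computed from the deposited counts within each table. The libraries held 13412316 to 23782217 counts, so a count of 3, the floor taken per library, stood for 0.129 to 0.231 CPM, counting error only. Several libraries stood apart from their labels. Ly6a, the gene of Sca1, had 686 and 655 CPM in the libraries labelled Sca1-negative, against 13.5 and 10.1 CPM in those labelled Sca1-positive, the opposite of the sort. In the knockout table Ly6a had 732, 687 and 1002 CPM in the knockout libraries, against 448, 13.1 and 9.76 CPM in the control libraries, so that control 1 stood apart from controls 2 and 3. Libraries labelled Sca1-positive 2 and 3 appear in all 3 tables with equal counts for every listed lysosome gene and for at least 97.9% of all genes, so the comparisons share them. Sca1-positive 1 was not the same data in the adult and knockout tables, where 0 of 40 lysosome genes had equal counts. Igf1r, the deleted gene, had 7.81, 4.25 and 3.49 CPM in the knockout libraries, against 31.1, 29.9 and 29.9 CPM in the controls.

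Adult PDGFRa+CD51+ cells had far higher levels of lysosomal transcripts than perinatal cells labelled Sca1-positive. Of the 41 genes, 39 were higher in adult libraries, 1 was lower (Cd63) and 1 was not called (Gaa), by edgeR's quasi-likelihood test with a Benjamini-Hochberg adjusted p under 0.05. Calls were common among all 13757 genes tested, of which 37.4% were higher and 39.7% lower. How many of all genes had no overlap between the groups was not counted in this comparison. Lack of overlap is therefore given below only as a description of single genes. The median log2 fold change was 1.86 over the 41 genes and -0.06 over all genes. Together the 41 genes made up 6.97 to 7.34% of all counts of an adult library, against 0.822 to 1.02% in a perinatal one. Age and sort gate changed together in this comparison and cannot be told apart, and in bulk samples fewer cells of a type and less RNA per cell cannot be told apart either.

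Markers of macrophages moved with these genes. All 14 listed macrophage markers of 15 were higher in the adult libraries, where they summed to 13023 to 13609 CPM, against 48.2 to 59.3 CPM in the perinatal libraries. Adgre1, which encodes the macrophage surface protein F4/80, had 840, 934 and 816 CPM in adult and 0.148, 0.251 and 0.386 CPM in perinatal libraries. Csf1r, the receptor of macrophage colony-stimulating factor, had 1503, 1262 and 1615 CPM in adult and 1.03, 4.21 and 3.55 CPM in perinatal libraries. Cd14, a coreceptor for bacterial lipopolysaccharide, had 290, 312 and 295 CPM in adult and 6.28, 5.52 and 7.79 CPM in perinatal libraries. The 9 stromal markers summed to 4263 to 6944 CPM in adult libraries and 82196 to 115644 CPM in perinatal libraries, with 7 lower. Pdgfra, the gene of the sorted receptor, had 14, 11.9 and 13.3 CPM in adult and 306, 256 and 309 CPM in perinatal libraries, whereas Itgav, which encodes CD51, had 266, 240 and 283 CPM in adult and 56.8, 51.8 and 54.5 CPM in perinatal libraries. Stromal markers were thus low, and macrophage markers high, in adult libraries labelled as stromal cells. The 5 listed osteoclast markers of 6 summed to 26.6 to 38.5 CPM in adult and 59.3 to 68.4 CPM in perinatal libraries. Nearly all of the adult sum was Itgb3, an integrin subunit that other cell types also express, with 32.4, 26.1 and 37.7 CPM in adult and 63.3, 15.0 and 17.6 CPM in perinatal libraries. Among the other markers, Calcr was at 0 in all 3 adult libraries, Ocstamp at most 0.276 CPM, Dcstamp at most 0.157 CPM and Mmp9 at most 0.365 CPM. The perinatal libraries were not alike either. Cartilage markers summed to 455, 6010 and 7386 CPM in Sca1-positive 1, 2 and 3, and bone markers to 359, 6641 and 6339 CPM. The part of any cell type in the lysosomal differences was not tested.

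**Figure D1:**
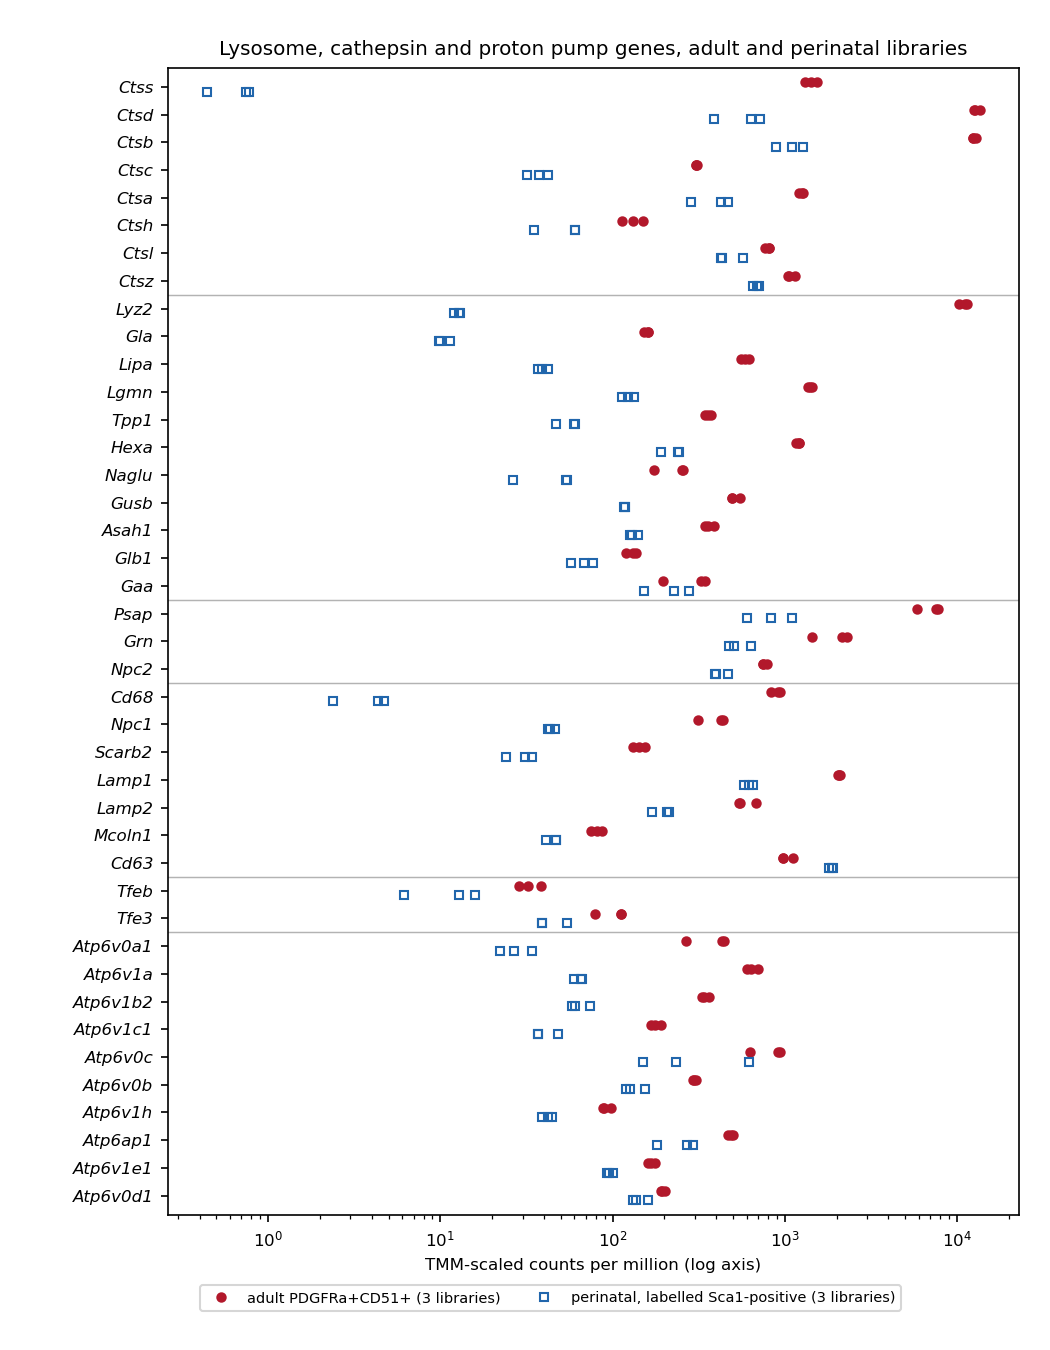
TMM-scaled CPM (log axis) of the 41 lysosome genes in each of 3 adult (filled circles) and 3 perinatal libraries labelled Sca1-positive (open squares), in blocks from top to bottom of cathepsins, other hydrolases, soluble cofactors, membrane proteins, transcription factors and proton pump genes. Ctss, Lyz2 and Cd68 lie farthest apart, and Cd63 is higher in the perinatal libraries.

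The 8 cathepsins were all higher in adult cells, with a median log2 fold change of 2.36 and a range of 0.66 to 11.10. Ctss, a cysteine protease that processes the class II invariant chain in antigen-presenting cells (chromosome 3, 95526786 to 95556403, plus strand), had 1428, 1535 and 1303 CPM in adult libraries, against 0.739, 0.439 and 0.771 CPM in perinatal ones. These perinatal values rest on 7 to 10 counts per library, and the groups are separated by orders of magnitude (log2 fold change 11.10, SE 0.26, adjusted p = 4.14e-07 by edgeR's quasi-likelihood test). Ctsd, the main aspartic protease of lysosomes (chromosome 7, 142375911 to 142388038, minus strand), had 13574, 12674 and 12545 CPM in adult and 387, 640 and 714 CPM in perinatal libraries. All adult values lay above all perinatal ones (log2 fold change 4.48, SE 0.28, adjusted p = 6.14e-06 by edgeR). Ctsb, a cysteine protease with both endopeptidase and carboxypeptidase activity, had 12880, 12390 and 12326 CPM in adult and 892, 1108 and 1273 CPM in perinatal libraries. Its adult libraries lay within a narrow range far above the perinatal ones (log2 fold change 3.52, SE 0.20).

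Smaller differences were found for the other cathepsins. Ctsc, which activates serine proteases of immune cell granules, had 310, 304 and 307 CPM in adult and 31.9, 42.3 and 37.5 CPM in perinatal libraries (log2 fold change 3.04, SE 0.15). Ctsa, a carboxypeptidase that also protects β-galactosidase and neuraminidase, had 1272, 1204 and 1266 CPM in adult and 284, 426 and 469 CPM in perinatal libraries (1.67, SE 0.21, on the log2 scale). Ctsh, an aminopeptidase, had 113, 149 and 132 CPM in adult and 35.0, 60.8 and 60.8 CPM in perinatal libraries (1.33, SE 0.23). None of these 3 genes overlapped between the groups. The smallest log2 fold changes belonged to Ctsl, a broad endopeptidase, with 807, 811 and 766 CPM in adult and 573, 430 and 427 CPM in perinatal libraries (0.74, SE 0.16, adjusted p = 0.00338 by edgeR), and to Ctsz, a carboxypeptidase, with 1042, 1143 and 1057 CPM in adult and 650, 694 and 711 CPM in perinatal libraries (0.66, SE 0.13, adjusted p = 0.00199 by edgeR). Both were abundant in perinatal cells too.

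The order of the cathepsins therefore differed between the groups when levels were compared per transcript length, in TPM, the authors' length-scaled transcript abundance. In adult libraries the mean levels ran from Ctsd at 10431 TPM through Ctsb at 4618, Ctss at 2264, Ctsa at 1419, Ctsz at 1362, Ctsl at 854 and Ctsc at 278 to Ctsh at 242 TPM. In perinatal libraries Ctsz led with 657 TPM, followed by Ctsd at 348, Ctsl at 310, Ctsb at 254, Ctsa at 220, Ctsh at 46.0 and Ctsc at 19.4 TPM, with Ctss last at 0.613 TPM. This order is given as a description, with no test between genes.

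Of the 11 other hydrolases, 10 were higher in adult cells, with a median log2 fold change of 2.41. Lyz2, the lysozyme that cleaves bacterial cell walls (chromosome 10, 117277331 to 117282321, minus strand), had 11172, 11436 and 10239 CPM in adult and 12, 13 and 12.8 CPM in perinatal libraries, a wide gap with little spread in either group (log2 fold change 9.76, SE 0.21, adjusted p = 4.14e-07 by edgeR). At 18163 TPM it had the highest mean level of the 41 genes in adult libraries, against 12.6 TPM in perinatal ones. Reads may be shared with its paralogue Lyz1, which held 19, 20 and 10 counts in the adult libraries and 0 in each perinatal one.

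Lipid- and sugar-degrading enzymes followed. Gla, the α-galactosidase lacking in Fabry disease, had 162, 160 and 152 CPM in adult and 9.98, 11.4 and 9.79 CPM in perinatal libraries (log2 fold change 3.92, SE 0.13). Lipa, the acid lipase that frees cholesterol from its esters, had 553, 622 and 585 CPM in adult and 42.0, 36.9 and 39.2 CPM in perinatal libraries (3.90, SE 0.14). Both genes were tight within each group and far apart between them. Naglu, which removes N-acetylglucosamine from heparan sulphate (chromosome 11, 101070012 to 101077672, plus strand), had 256, 175 and 252 CPM in adult and 26.4, 54.4 and 53.5 CPM in perinatal libraries (2.35, SE 0.31). Hexa, which encodes the α subunit of β-hexosaminidase, had 1157, 1216 and 1210 CPM in adult and 191, 240 and 245 CPM in perinatal libraries (2.41, SE 0.15). Gusb, the β-glucuronidase, had 546, 495 and 495 CPM in adult and 118, 118 and 116 CPM in perinatal libraries (2.13, SE 0.12). No adult library of these genes reached down to a perinatal one. Glb1, the β-galactosidase, was closer between the groups, with 137, 120 and 131 CPM in adult and 57.7, 68.2 and 77.0 CPM in perinatal libraries (0.94, SE 0.14), and Asah1, the acid ceramidase, changed by 1.46 (SE 0.12).

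The proteases outside the cathepsin family were also higher. Lgmn, the asparaginyl endopeptidase that trims cathepsin precursors, had 1440, 1398 and 1356 CPM in adult and 124, 113 and 133 CPM in perinatal libraries (log2 fold change 3.51, SE 0.14), and Tpp1, a tripeptidyl peptidase, changed by 2.68 (SE 0.15). Gaa, the glycogen-degrading α-glucosidase, was the exception. It had 325, 197 and 345 CPM in adult and 152, 227 and 278 CPM in perinatal libraries, so the groups overlapped (log2 fold change 0.40, SE 0.28, adjusted p = 0.227 by edgeR). Without Sca1-positive libraries 2 and 3, Gaa was called higher, with a log2 fold change of 0.94 against the 1 remaining perinatal library, whose spread was then assumed to equal that of the adult libraries.

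The 3 soluble cofactors were higher too. Psap, the precursor of the saposins that present lipids to hydrolases, had 7732, 5843 and 7579 CPM in adult and 604, 836 and 1108 CPM in perinatal libraries (log2 fold change 3.05, SE 0.27). Grn, which encodes progranulin, had 2299, 1434 and 2161 CPM in adult and 475, 505 and 639 CPM in perinatal libraries (1.86, SE 0.23). Adult library 2 was the lowest of its group for both, yet above every perinatal library. Npc2, a soluble cholesterol carrier, had 744, 786 and 747 CPM in adult and 466, 396 and 396 CPM in perinatal libraries (0.86, SE 0.13).

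Of the 7 membrane proteins, 6 were higher and 1 lower in adult cells. Cd68, a heavily glycosylated LAMP-family protein (chromosome 11, 69664213 to 69666153, minus strand), had 944, 834 and 911 CPM in adult and 4.73, 2.39 and 4.32 CPM in perinatal libraries, with no overlap (log2 fold change 7.88, SE 0.30, adjusted p = 9.62e-07 by edgeR). Npc1, the membrane partner of NPC2 in cholesterol export, had 438, 315 and 424 CPM in adult and 42.4, 43.1 and 46.3 CPM in perinatal libraries (3.16, SE 0.17). Scarb2, which carries β-glucocerebrosidase to lysosomes, had 131, 153 and 142 CPM in adult and 24.1, 30.8 and 34.2 CPM in perinatal libraries (2.26, SE 0.16). For Npc1 and Scarb2 the groups were well apart. Lamp1, a major protein of the lysosomal membrane, had 2041, 2099 and 2067 CPM in adult and 580, 617 and 658 CPM in perinatal libraries (1.74, SE 0.13), and its relative Lamp2 changed by 1.59 (SE 0.16). Mcoln1, a calcium channel of lysosomes, had 86.6, 75.1 and 81.1 CPM in adult and 41.3, 46.9 and 47.2 CPM in perinatal libraries (0.84, SE 0.12).

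Cd63, a tetraspanin of late endosomes and exosomes (chromosome 10, 128900989 to 128912822, plus strand), ran the other way. It had 975, 1112 and 976 CPM in adult and 1795, 1902 and 1869 CPM in perinatal libraries, all adult values below all perinatal ones (log2 fold change -0.86, SE 0.14, adjusted p = 6.61e-04 by edgeR). The call depended on the scale: the authors' TPM values were 2604 to 2838 in adult and 2563 to 3152 in perinatal libraries, which overlap, with a log2 difference of -0.13 and an adjusted p of 0.348 by limma. On that scale the median of all genes moved to 0.40, and calls over all genes were 6641 higher and 4060 lower, against 5142 and 5468 on the count scale.

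The genes of both transcription factors were higher in adult cells as well, at low levels. Tfeb had 32.3, 28.5 and 38.2 CPM in adult and 6.13, 12.8 and 15.8 CPM in perinatal libraries (log2 fold change 1.51, SE 0.32, adjusted p = 0.00330 by edgeR). Tfe3 had 113, 78.6 and 112 CPM in adult and 39, 38.9 and 54.1 CPM in perinatal libraries (1.20, SE 0.20). For both, the groups did not overlap. Genes with CACGTG in the promoter window had a median log2 fold change of 1.67 (13 genes), against 2.13 for those without it (21 genes). Values ran from 0.40 to 4.48 with the motif and from -0.86 to 11.10 without it. Ctsd and Ctss, whose promoters are printed above, were the highest of these sets and not typical of them. With the longer GTCACGTG the medians were 1.70 (10 genes) and 1.995 (24 genes).

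The 10 proton pump genes were all higher in adult cells, by a median of 1.24 on the log2 scale and unevenly. Atp6v0a1, an isoform of the large V0 subunit through which protons pass, had 441, 267 and 434 CPM in adult and 22.2, 26.7 and 34.0 CPM in perinatal libraries (log2 fold change 3.78, SE 0.27). Atp6v1a, the catalytic subunit that hydrolyses ATP, had 635, 697 and 603 CPM in adult and 59.6, 65.9 and 66.6 CPM in perinatal libraries (3.33, SE 0.14). Both lay many times above the perinatal level in every adult library. Its partner in the V1 ring, Atp6v1b2, had 339, 363 and 329 CPM in adult and 74.4, 60.6 and 57.9 CPM in perinatal libraries (2.42, SE 0.15). Atp6v1c1, in the stalk that joins V1 to V0, had 177, 191 and 168 CPM in adult and 48.3, 37.0 and 37.1 CPM in perinatal libraries (2.13, SE 0.15). These V1 subunits did not overlap between the groups either.

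Other pump genes differed by less. Atp6v0b, in the proton-carrying ring, had 297, 304 and 291 CPM in adult and 154, 126 and 119 CPM in perinatal libraries (log2 fold change 1.16, SE 0.14). Log2 fold changes were 1.14 (SE 0.12) for Atp6v1h, a regulatory V1 subunit, 0.96 (SE 0.20) for the accessory gene Atp6ap1 and 0.80 (SE 0.11) for the stalk gene Atp6v1e1. Atp6v0d1, which links the stalk to the ring, had 192, 194 and 200 CPM in adult and 161, 132 and 136 CPM in perinatal libraries (0.45, SE 0.13, adjusted p = 0.0116 by edgeR). The perinatal values were lower in all 3 libraries, but the call was lost with upper quartile scaling of the libraries. It was also lost without Sca1-positive library 2, at a log2 fold change of 0.39 and an adjusted p of 0.0529 by edgeR.

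Atp6v0c, the main ring subunit, is uncertain. It had 943, 627 and 918 CPM in adult and 150, 233 and 619 CPM in perinatal libraries, with an adjusted p of 0.0410 by edgeR. That call was lost without any 1 of the adult libraries, without Sca1-positive 2 and with upper quartile scaling. Without Sca1-positive 3 the log2 fold change of Atp6v0c was 2.12 in place of 1.31. Its near-identical copy Atp6v0c-ps2 was listed with 2, 0 and 0 counts in the adult libraries and with 2783, 4340 and 0 in the perinatal ones, while Atp6v0c itself had 17650, 12018 and 13283 counts in adult and 2034, 3712 and 8033 in perinatal libraries. The perinatal library with 0 counts for the copy was the one with the most for the gene. Gene and copy together had 17652, 12018 and 13283 counts in adult and 4817, 8052 and 8033 in perinatal libraries, which lie closer than those of the gene alone.

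Pump subunits outside the 41 genes, from a list of 15 of which 10 were tested, split further: 5 were higher, 2 lower and 3 not called. Among all genes tested 37.4% were higher and 39.7% lower. Tcirg1, the a3 isoform of the large V0 subunit used in osteoclasts and macrophages, had 525, 399 and 491 CPM in adult and 20.8, 30.8 and 34.3 CPM in perinatal libraries (log2 fold change 4.04, SE 0.23). Atp6v0d2, the d2 partner isoform, had 62.5, 74.9 and 60.6 CPM in adult and 0, 0.377 and 0 CPM in perinatal libraries. These 2 isoforms were thus plainly detected in the adult cells, and the second was near the floor in the perinatal ones. Among the a isoforms in adult libraries, Tcirg1 averaged 400 TPM, Atp6v0a1 220 TPM, Atp6v0a2 29.7 TPM and Atp6v0a4 0.124 TPM, whereas in perinatal libraries Tcirg1 averaged 29.9 TPM, Atp6v0a1 12.8 TPM, Atp6v0a2 9.52 TPM and Atp6v0a4 0.508 TPM. Atp6v0d1 averaged 227 TPM and Atp6v0d2 58.4 TPM in adult libraries, against 111 TPM for Atp6v0d1 and 0.0645 TPM for Atp6v0d2 in perinatal ones. Atp6v1b1, the kidney isoform of the B subunit, was near 0 in both groups. Lower in adult cells were Atp6v0e2, with 3.79, 2.92 and 4.77 CPM in adult and 6.80, 10.4 and 12.3 CPM in perinatal libraries, and Atp6v0e, with a log2 fold change of -0.39 (SE 0.15). The direction for Atp6v0e turned with the scale, since the authors' TPM was 488 to 517 in adult and 354 to 420 in perinatal libraries.

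**Figure D2:**
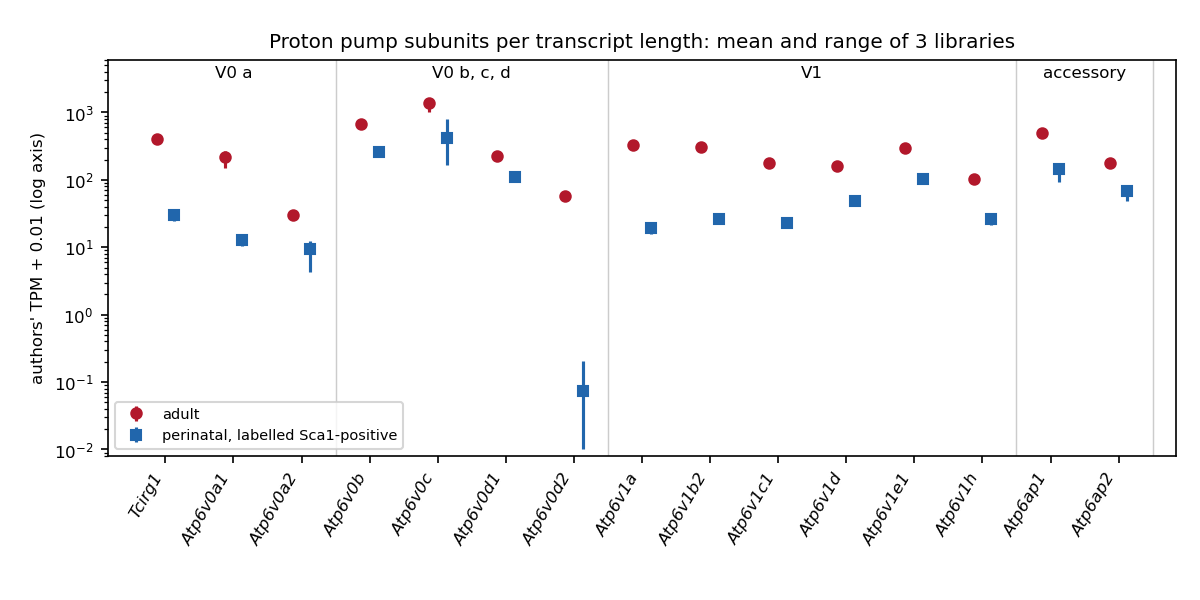
Mean (symbols) and range (bars) of the authors' TPM on a log axis for proton pump genes and partner isoforms, grouped by sector, in 3 adult (circles, left of each pair) and 3 perinatal libraries labelled Sca1-positive (squares). Among the genes drawn, every adult mean is above its perinatal mean, the gap is widest for Atp6v0d2, and the perinatal range of Atp6v0c is wide. Genes left out include Atp6v0a4, Atp6v1b1, Atp6v0e, Atp6v0e2, Atp6v1f and Atp6v1g1. On the TPM scale the median log2 difference of all genes, adult over perinatal, was 0.40.

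Other genes of the pathway, from lists drawn up by function, moved both ways, as did all genes tested, of which 37.4% were higher and 39.7% lower. Of 30 further hydrolases, 21 were higher and 3 lower in adult cells. Galc, which degrades galactosylceramide, had 208, 215 and 210 CPM in adult and 3.84, 3.33 and 3.93 CPM in perinatal libraries (log2 fold change 5.83, SE 0.14). Dnase2a, the lysosomal DNase, had a log2 fold change of 4.53 (SE 0.15) and Pla2g15, a lysosomal phospholipase, one of 4.10 (SE 0.17). Acp5, the tartrate-resistant phosphatase of osteoclasts, was lower, with 1.82, 1.67 and 1.59 CPM in adult and 17.8, 22.7 and 24.1 CPM in perinatal libraries. Ctsk, the collagen-degrading cathepsin of osteoclasts, was lower as well, with 49.8, 64.6 and 55.3 CPM in adult and 325, 535 and 501 CPM in perinatal libraries (-3.0, SE 0.23). In the list of further cathepsins, 2 of 4 tested were higher, among them Ctse (4.51, SE 0.41), and 2 were lower, Ctsk and Ctsf (-0.75, SE 0.21).

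Of 19 further membrane proteins 13 were higher and 4 lower. Laptm5, a lysosomal protein of blood cells, had 1514, 1005 and 1523 CPM in adult and 3.10, 2.32 and 3.01 CPM in perinatal libraries, and Slc11a1, a metal transporter of phagosomes, had 99.8, 92.8 and 107 CPM in adult and 0.739, 1.51 and 1.47 CPM in perinatal libraries. Both were very low in every perinatal library. Laptm4b, a relative of Laptm5, was lower (log2 fold change -1.97, SE 0.15). Of 13 genes that deliver enzymes to lysosomes, 11 were higher and 2 lower. Gnptab, which starts the mannose 6-phosphate tag on hydrolases, was higher (2.90, SE 0.17), while Igf2r, the receptor that reads this tag and also binds IGF2, was lower, with 358, 225 and 319 CPM in adult and 940, 574 and 609 CPM in perinatal libraries (-1.23, SE 0.25).

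Among 14 regulators of lysosome genes 9 were higher and 2 lower. Tfec, a myeloid relative of TFEB, had 13, 17.4 and 15.0 CPM in adult and 0.0739, 0.0628 and 0 CPM in perinatal libraries, the perinatal values resting on at most 1 count a library. Rragd, a GTPase that activates mTORC1 at the lysosome, was higher (log2 fold change 3.90, SE 0.24), and Lamtor5 and Lamtor2, parts of its anchor, were lower (-1.77, SE 0.22, and -1.54, SE 0.29). Of 6 tested cystatins and related inhibitors, 2 were higher and 3 lower, where 37.4% of all genes were higher and 39.7% lower. Cst3, the secreted cystatin C that inhibits cysteine cathepsins, had 622, 756 and 682 CPM in adult and 1308, 1151 and 1127 CPM in perinatal libraries (-0.80, SE 0.14), every adult library being below every perinatal one.

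**Figure D3:**
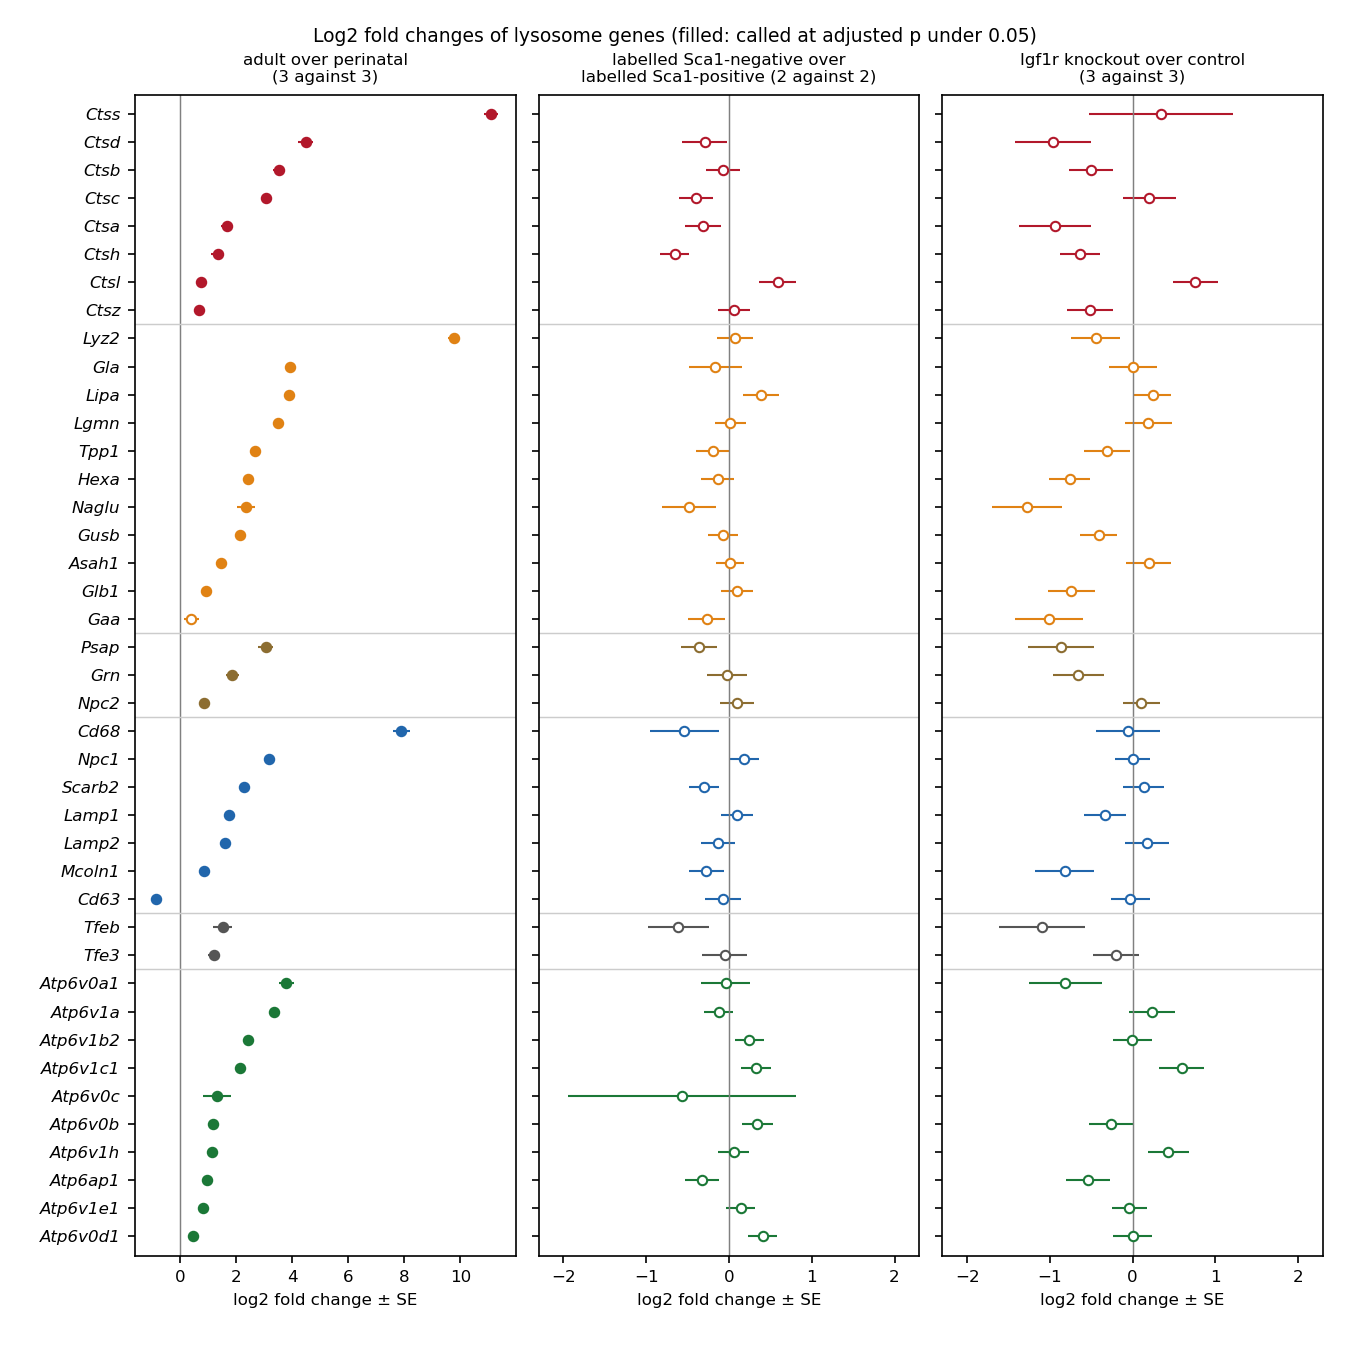
Log2 fold change with its standard error for each lysosome gene in 3 comparisons, from left to right adult over perinatal cells, libraries labelled Sca1-negative over Sca1-positive, and Igf1r knockout over control, with 0 as a line and colours by class. Filled points passed an adjusted p of 0.05, which happened in the adult panel only; Ctss is not drawn in the Sca1 panel and Atp6v0c not in the knockout panel.

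Libraries labelled Sca1-negative 2 and 3 were compared with libraries labelled Sca1-positive 2 and 3. None of the 40 lysosome genes tested was called in either direction by edgeR's quasi-likelihood test. DESeq2 also called 0, and at an unadjusted p under 0.05 edgeR gave 1 higher and 1 lower. Over all 13529 genes, 1.63% were called higher and 2.79% lower. Ctss did not pass the filter on low counts, at 0.540 and 0.144 CPM in libraries labelled Sca1-negative and 0.395 and 0.693 CPM in those labelled Sca1-positive. Directions here follow the labels, which Ly6a contradicts. Other gene groups did differ between the same libraries: all 7 cartilage markers and 6 of 7 bone markers were lower and 5 of 6 markers of fibroblast progenitors higher in the libraries labelled Sca1-negative, whereas 0 of 10 macrophage markers were called by edgeR. Of 4 mast cell markers tested 3 were higher, with sums of 19.1 and 19.2 CPM in libraries labelled Sca1-negative, against 2.71 to 3.05 CPM in those labelled Sca1-positive. The part of these cell types in the values below was not tested.

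The log2 fold changes of the 40 genes ran from -0.66 to 0.59 with a median of -0.07, against 0.01 for all genes. By class the medians were -0.30 for cathepsins, -0.07 for other hydrolases, -0.02 for cofactors, -0.13 for membrane proteins, -0.33 for the factors and 0.10 for the pump. Ctsh had 33.2 and 36.1 CPM in libraries labelled Sca1-negative and 54.6 and 54.7 CPM in those labelled Sca1-positive, which do not overlap (log2 fold change -0.66, SE 0.17, adjusted p = 0.0962 by edgeR). Ctsl had 678 and 480 CPM in libraries labelled Sca1-negative and 386 and 384 CPM in those labelled Sca1-positive, also without overlap (0.59, SE 0.22, adjusted p = 0.225 by edgeR). In all, 8 genes had both labelled Sca1-negative libraries above both others and 10 had both below, where 24.4% and 25.8% of all genes did.

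The 2 libraries labelled Sca1-negative did not behave alike. Ctsd had 378 and 613 CPM in them, against 574 and 642 CPM in the libraries labelled Sca1-positive, and Naglu had 23.1 and 46.3 CPM, against 48.8 and 48.1 CPM. For both genes Sca1-negative 2 was low and Sca1-negative 3 near the others. Without Sca1-negative 3, edgeR called 3 genes higher (Ctsl, Atp6v0b and Atp6v1c1) and 10 lower, led by Tfeb at -1.22 and Naglu at -1.06 on the log2 scale, among 16.3% of all genes called higher and 18.4% called lower, with the lone library assumed to vary like the others. Without Sca1-negative 2, again with a lone library, the median log2 fold change was 0.02 over the 41 genes and 0.0005 over all genes. Ctsh was lower in each library labelled Sca1-negative than in both libraries labelled Sca1-positive. GC content moved with this split: across all genes tested, the fifth with the highest GC content deviated from its mean by a median of -0.27 (log2) in Sca1-negative 2 and 0.13 in Sca1-negative 3, against 0.02 and 0.10 in the libraries labelled Sca1-positive. With a correction for GC content, 0 lysosome genes were called higher and 1 lower, Ctsh, at an adjusted p of 0.0431 by edgeR. Among all 13529 genes this fit called 369 higher and 543 lower. The same correction without Sca1-negative 3 gave a median log2 fold change of -0.10 over the 41 genes and -0.01 over all genes.

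**Figure D4:**
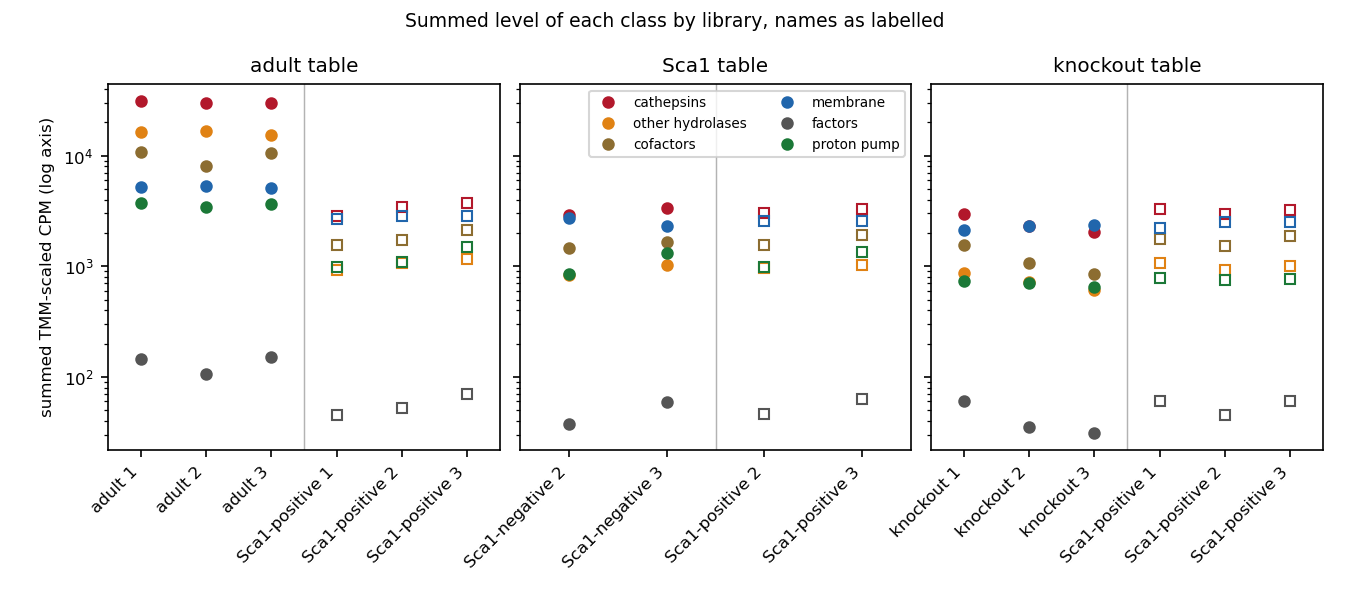
Summed TMM-scaled CPM (log axis) of each class in every library of the 3 tables, the adult, labelled Sca1-negative or knockout libraries filled and left of the perinatal libraries labelled Sca1-positive, drawn open. Every class is higher in all adult libraries, and in the knockout table the cathepsins, cofactors and factors are lowest in knockouts 2 and 3. The pump sums include the uncertain Atp6v0c, except in the knockout table. In the Sca1 table it had 505 and 6715 counts in Sca1-negative 2 and 3. Sca1-positive 2 and 3 held 3712 and 8033 counts of it there.

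In the Igf1r knockout comparison none of the 40 listed lysosome genes was called by edgeR's quasi-likelihood test, and at an unadjusted p under 0.05 it gave 1 higher and 5 lower. DESeq2 called 0 higher and 1 lower, Naglu, at an adjusted p of 0.0497. Among all 13590 genes edgeR called 0% higher and 0.0368% lower, 5 genes in number, while 1647 were higher and 1316 lower at an unadjusted p under 0.05. Igf1r itself missed the threshold at an adjusted p of 0.0816 by edgeR (log2 fold change -2.55, SE 0.34). Cre and the deletion differ together between these groups. Markers of other cell types set controls 2 and 3 apart from the other libraries of the table: cartilage markers summed to 395, 247 and 260 CPM in the knockouts, against 490, 5231 and 6448 CPM in controls 1, 2 and 3. Bone markers summed to 264, 129 and 256 CPM in the knockouts, against 87.1, 5780 and 5533 CPM in controls 1, 2 and 3. None of the 7 cartilage markers was called by edgeR, and their part in the values below was not tested.

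The median log2 fold change of the 40 genes was -0.23, against -0.03 for all genes. It was -0.50 for cathepsins, -0.41 for other hydrolases, -0.66 for cofactors and -0.65 for the factors, but -0.03 for membrane proteins and -0.01 for the pump. For 10 genes every knockout library lay below every control (Ctsa, Ctsb, Ctsd, Ctsh, Ctsz, Hexa, Glb1, Gusb, Naglu and Mcoln1) and for 1, Ctsl, every knockout library lay above, where 14.1% and 14.9% of all genes did. The cathepsins summed to 2953, 2327 and 2035 CPM in knockout and 3299, 2960 and 3224 CPM in control libraries. Other hydrolases summed to 865, 716 and 609 CPM in knockout and 1067, 932 and 1004 CPM in control libraries. Pump genes without Atp6v0c summed to 741, 702 and 645 CPM in knockout and 780, 747 and 769 CPM in control libraries. In each of these classes every knockout sum lay below every control sum. For cathepsins the gap was narrow, 2953 CPM in knockout 1 against 2960 CPM in control 2. No single pump gene was without overlap. Sums of the remaining classes overlapped. Cofactors had 1549 CPM in knockout 1 and 1512 CPM in control 2. Membrane proteins had 2123 to 2371 CPM in knockout and 2236 to 2501 CPM in control libraries. Factors had 60.8 CPM in knockout 1 and 60.2 CPM in control 1.

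Naglu had 34.7, 22.8 and 10.5 CPM in knockout and 70.7, 47.3 and 46.7 CPM in control libraries, with no overlap (log2 fold change -1.28, SE 0.42, adjusted p = 0.182 by edgeR). Ctsd had 535, 274 and 130 CPM in knockout and 644, 557 and 623 CPM in control libraries (-0.96, SE 0.46). Psap had 754, 414 and 245 CPM in knockout and 885, 728 and 967 CPM in control libraries (-0.87, SE 0.40). In all 3 genes knockout 1 lay highest and knockout 3 lowest of the knockout libraries. Tfeb showed the same order, with 12.8, 5.21 and 2.90 CPM in knockout and 19.8, 11.1 and 13.8 CPM in control libraries, and its groups overlapped (-1.09, SE 0.52). Hexa had 161, 101 and 117 CPM in knockout and 219, 209 and 214 CPM in control libraries, all knockout values being lower (-0.76, SE 0.25, adjusted p = 0.181 by edgeR). Ctsl ran the other way, with 525, 586 and 874 CPM in knockout and 425, 374 and 373 CPM in control libraries (0.76, SE 0.27, adjusted p = 0.184 by edgeR). Cd63 did not differ beyond its spread, at 1299, 1531 and 1669 CPM in knockout and 1297, 1656 and 1631 CPM in control libraries. None of the further lysosome lists had a called gene; Igf2r had 584, 854 and 2506 CPM in knockout and 643, 500 and 531 CPM in control libraries.

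The count of calls turned on knockout 1, the knockout library with the most Igf1r. Without it, 2 lysosome genes were called higher, Ctsl (log2 fold change 0.91) and Atp6v1c1 (0.83), and 10 lower, among 11.0% of all genes called higher and 10.5% called lower by edgeR. The lower ones were Tfeb (-1.88), Naglu (-1.72), Ctsd (-1.59), Gaa (-1.56), Atp6v0a1 (-1.41), Psap (-1.38), Glb1 (-1.06), Grn (-0.99), Hexa (-0.97) and Ctsz (-0.79). No lysosome gene was called when any other library was left out, or without controls 2 and 3, which leaves 1 control.

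GC content moved with these values. Across all genes tested, the fifth with the highest GC content, from 55.6% of the transcript upward, deviated from the mean of the 6 libraries by a median of 0.20, -0.33 and -0.67 (log2) in knockouts 1, 2 and 3, against 0.53, 0.10 and 0.20 in controls 1, 2 and 3. Among the knockout libraries Ctsd, Psap, Naglu and Tfeb had the order of these medians, whereas Hexa was lowest in knockout 2. Among the controls Ctsd and Tfeb had it too. Psap, highest in control 3, and Naglu, lowest in control 3, did not. Whether GC content caused these orders was not tested. GC content was 63.2% for Tfeb, 59.8% for Naglu, 59.5% for Gaa and 55.9% for Ctsd, and 44.3% for Ctsl and 44.4% for Atp6v1c1. Among the other genes called lower without knockout 1, it ran from 47.0% for Atp6v0a1 and 51.1% for Glb1 to 57.3% for Ctsz. Cd63, at 58.1%, did not follow the order of the knockout libraries, its lowest knockout value being in knockout 1. With a correction for GC content and without knockout 1, 0 lysosome genes were called higher and 2 lower. The lower ones were Atp6v0a1 (log2 fold change -1.68, adjusted p = 0.0432 by edgeR) and Glb1 (-0.93, adjusted p = 0.0331 by edgeR). Among all 13952 genes this fit called 770 higher and 438 lower. With the correction and all libraries no lysosome gene was called. Genes with GTCACGTG in the promoter window had a median log2 fold change of -0.53 (10 genes), against -0.20 without it (23 genes). With CACGTG the medians were -0.33 (13 genes) and -0.25 without it (20 genes), all from the uncorrected fit.

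**Figure D5:**
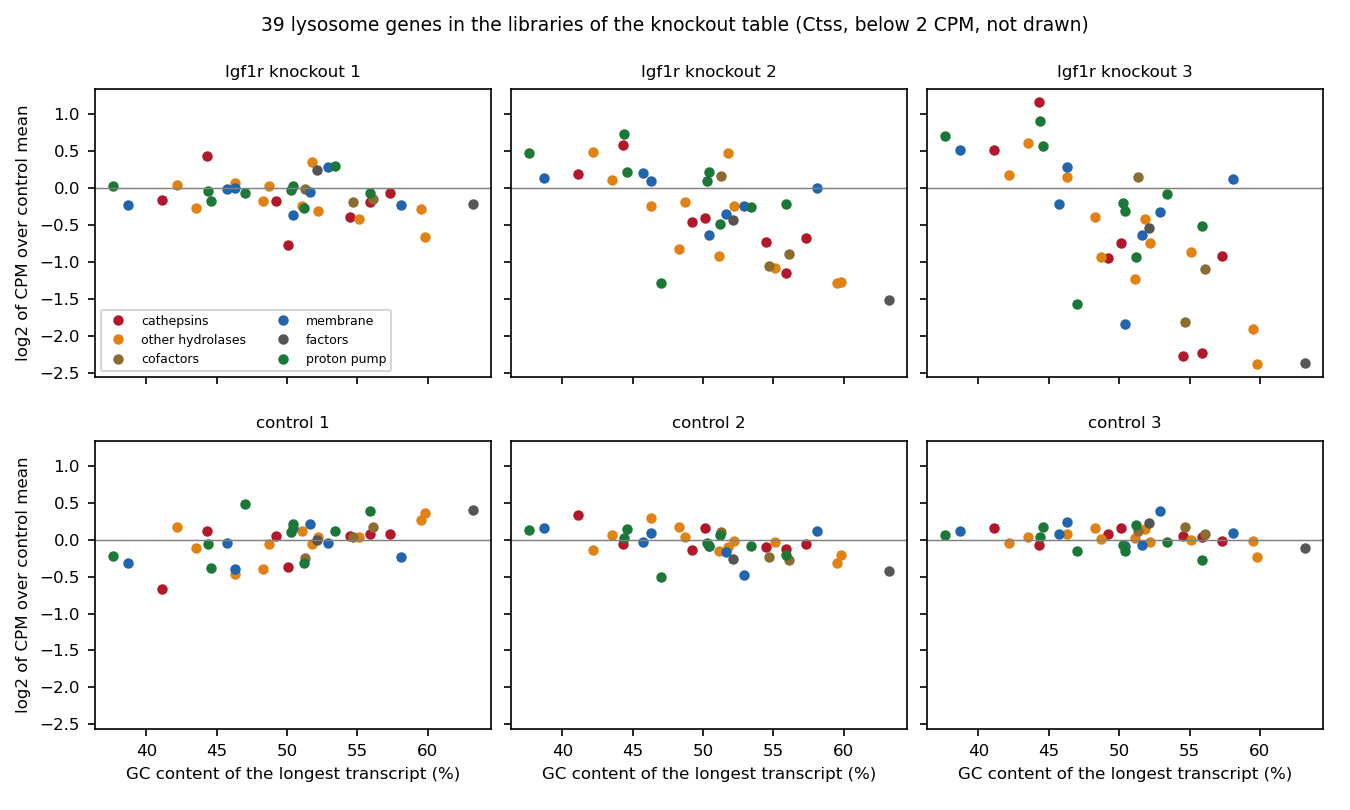
Log2 ratio of CPM to the control mean for each lysosome gene in each of 3 Igf1r knockout libraries (upper row) and 3 controls (lower row), against the GC content of its longest transcript (percent), coloured by class. Several genes of high GC content lie lowest in knockouts 2 and 3, such as Tfeb, the rightmost point at 63.2%, but Cd63 does not. The controls are drawn against their own mean, which keeps them near 0 by construction. Ctss is not drawn for its low counts.

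Some levels could include reads of neighbours. Exons of 10 of the 41 genes overlap another listed gene, 9 of them only on the opposite strand, such as Ctsb with Fdft1 over 774 bases, Npc1 with Rmc1 over 511 and Ctsa with Pltp over 495, and Glb1 shares 165 bases with Tmppe on its own strand. Whether the counting used strand is not given in the sources used here.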

How the data were processed

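PolyA RNA-seq of sorted mouse bone marrow cells was analysed in 11 samples, each of 3 deposited tables by itself, and the 41 genes and all lists were chosen with earlier results of these data known. The tables hold raw counts per gene as deposited by the authors. Reads were trimmed with Trimmomatic 0.32 and the build was mm10, per the submitters' processing notes, which also name DESeq2; for the aligner, the counter and strand, nothing is given in the sources used here. The TPM values are the authors' own, per the file headers, and were used for levels between genes and an alternative test on log2(TPM + 1).

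Groups were compared on counts with edgeR 4.0.16 in R 4.3.3 (TMM factors, filterByExpr, robust glmQLFit and glmQLFTest), with Benjamini-Hochberg adjustment over all genes tested in a table and a call at an adjusted p under 0.05. SE is the log2 fold change divided by the square root of F. DESeq2 1.42.0 and limma 3.58.1 served as alternatives, beside other scalings, no filter, a replicate block and leaving out libraries. Fits with offsets corrected for GC content (lowess, span 0.3) and the TPM fit were added after seeing the data. Coordinates are from GENCODE M21 (GRCm38). All 41 genes were named, and genes of the further lists by smallest adjusted p, up to 3 a direction. Scripts were tested on simulated data.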

Additional observations from a re-analysis of the deposited data

How the results depend on the processing

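In the adult comparison no lysosome gene changed sign in 574 alternative values; 9 calls were lost (Atp6v0c, Atp6v0d1 and Cd63) and 1 gained (Gaa). By limma on TPM, 0 were lower. In the Sca1 comparison, 21 of 40 genes changed sign in at least 1 alternative. All genes called there numbered 424 higher and 588 lower by DESeq2, 369 higher with the GC correction and 140 higher by limma on TPM; 1 lysosome gene was lower with the GC correction. With the replicate block, 1 lysosome gene (Ctsh, adjusted p = 0.0468 by edgeR) was lower, with 577 genes higher and 792 lower in all. Leaving out 1 library gave 0 to 3 lysosome genes higher and 0 to 10 lower, and 143 to 2268 genes higher and 317 to 2567 lower in all; with the GC correction and without Sca1-negative 3, 5 and 9, and 2524 and 2410 in all.

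In the knockout comparison 18 of 40 genes changed sign in at least 1 alternative. DESeq2 called 472 genes higher and 527 lower, with 1 lysosome gene lower. No gene was lower with the replicate block (0) or without controls 2 and 3 (0), and 3 were with the GC correction. Leaving out 1 library gave 0 to 2 lysosome genes higher and 0 to 10 lower, and 0 to 1532 genes higher and 0 to 1471 lower in all; with the GC correction and without knockout 1, 0 and 2, and 770 and 438 in all. The causes were not tested. Replicate numbers were not taken to pair the samples, since the labels do not say what they mark: correlations of same-numbered deviations were -0.04 to 0.25 for adults, 0.35 for the Sca1 sort (only 2 pairs) and 0.10 to 0.26 for knockouts. Genes near the floor, such as perinatal Ctss, are limited by depth.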
